A study of Mus musculus with 12 samples.

Results

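The transcripts described here are those of NRF2, of its inhibitor KEAP1 and of 8 genes that NRF2 is known to switch on, measured by RNA sequencing in mouse fibroblasts that carried an inducible N-VEGF or NLS-N-VEGF sequence. The 10 genes were chosen by name, as the rows of the count table for Nfe2l2, Keap1, Nqo1, Hmox1, Gclc, Gclm, Txnrd1, Srxn1, Gsr and Osgin1, out of 54447 rows. All 10 were found, and all 10 were among the 13608 genes that passed the filter on low counts. Each was counted well above the floor of 3 counts, with a lowest count of 71 (Osgin1) and a highest of 6876 (Txnrd1) in any library. The labels call the cells mouse embryonic fibroblasts, and the study's methods name the NIH3T3 line, an immortal line of mouse embryonic fibroblasts. Both populations carried a lentiviral Tet-On vector with puromycin resistance, and resistant cells were used as a pool. N-VEGF is the part at the N-terminus of a long form of VEGF-A, and in NLS-N-VEGF it follows the nuclear localization sequence of Cas9. Each population was sampled without doxycycline (dox), the inducer of the Tet-On promoter, and within a day of its addition, which gave 4 groups of 3 libraries. No library of cells without the vector was analysed here, so an effect of dox itself and one of the induced protein cannot be told apart.

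NRF2, encoded by Nfe2l2, is a transcription factor that drives defence against oxidants and reactive chemicals. In resting cells KEAP1 holds NRF2 and hands it to a CUL3 ubiquitin ligase, so that NRF2 is made and destroyed continuously. Oxidants and electrophiles modify KEAP1, NRF2 then escapes destruction, pairs with a small MAF protein and binds antioxidant response elements (ARE). NRF2 activity is therefore set mainly at the level of the protein, and the transcripts of its targets are the usual readout in fibroblasts and other cells.

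The library titles end in a number and in 1 of 2 suffixes, _120519 or _290419, whose meaning the labels do not state. In each group libraries 1 and 2 had suffix _120519, and another library numbered 2 had suffix _290419. The labels do not say whether libraries of a group came from separate cultures, so p-values measure the spread between these libraries, which may be technical. Total counts lay between 13549331 and 18982127 per library, and 3 counts corresponded to 0.158 to 0.221 CPM, that is, counts scaled to the size of each library. The row of the construct insert was at 0.288 to 0.857 CPM in the 6 libraries without dox and at 2.57 to 17.9 CPM in the 6 with dox, so it was higher in every library labelled with dox. All 9 fibroblast markers passed the filter on low counts. Summed over the list they stood at 11488 to 14567 CPM with suffix _120519 and 11930 to 13516 CPM with suffix _290419. The 6 epithelial markers summed to at most 3.78 CPM in any library and the 6 endothelial markers to at most 5.0 CPM, with Krt5 at 0 throughout, and the 6 macrophage and leukocyte markers summed to 8.90 to 14 CPM. The N-VEGF library without dox numbered 1 with suffix _120519 stood apart. It had the fewest genes detected (19976), and the chi-square statistic of its counts against the other suffix _120519 library of its group was 25.1 per degree of freedom, against 1.73 to 4.83 in the other groups.

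The DNA element that NRF2 reads was looked for in the reference promoters of these genes (RefSeq, build GRCm38.p6, 250 bases before to 50 after an annotated start). The core searched was TGACNNNGC on either strand. The related AP-1 motif TGANTCA, which reads the same on both strands, was searched beside it. Of the 10 genes, 7 had an entry, with 9 promoters in all. Gclc, Gsr and Hmox1 had none. The sequences that matched are shown because the same element is what the target genes are held to share, with the match in capitals and 10 bases on either side, 5′ to 3′ along the strand of the gene.
Nfe2l2, ARE core, chr2:75704885-75704913, minus strand: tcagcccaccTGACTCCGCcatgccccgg
Gclm, ARE core read from the other strand, chr3:122245413-122245441, plus strand: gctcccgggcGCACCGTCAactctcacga
Txnrd1, ARE core read from the other strand, chr10:82859104-82859132, plus strand: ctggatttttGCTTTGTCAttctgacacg
Srxn1, ARE core read from the other strand, chr2:152105542-152105570, plus strand: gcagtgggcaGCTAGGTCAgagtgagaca
Srxn1, AP-1, first of a pair, chr2:152105412-152105438, plus strand: tcggagggccTGAGTCAccacgctgtg
Srxn1, AP-1, the other of the pair, chr2:152105469-152105495, plus strand: aaattcacccTGAGTCAgcggccgggc
Osgin1, AP-1, chr8:119437040-119437066, plus strand: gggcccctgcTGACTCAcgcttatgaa
The ARE core was therefore found in 4 of the 9 promoters, 1 in each of 4 genes, and in 12.4% of all 32851 promoters of this length. The AP-1 motif was found in 2 of the 9, and in 7.81% of all promoters. No match of the ARE core as searched overlapped an AP-1 match in these genes. The AP-1 match of Srxn1 nearer to the start is followed by gc. With these letters it differs from the searched core only in having G in place of C after TGA, so the search did not count it. The matches began 240 bases before the annotated start in Nfe2l2, 134 before it in Gclm and 92 before it in the Txnrd1 promoter that held one, whereas the ARE core of Srxn1 lay 28 to 36 bases after the start. Srxn1 was the only member with both motifs. The promoters of Keap1 and Nqo1 held neither set of letters in this window. A match is a description of letters and not a measured binding site.

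The members were expressed at levels that differed by more than an order of magnitude. On the scale of CPM per kilobase of merged exon (GENCODE M21), the order of mean levels over the 12 libraries was Srxn1 at 63.4 ± 4.82 (SD), Nqo1 at 63.3 ± 7.67, Gsr at 55.4 ± 2.89, Txnrd1 at 48.2 ± 5.49, Gclm at 37.6 ± 6.44, Nfe2l2 at 29.4 ± 2.03, Hmox1 at 22.3 ± 3.76, Gclc at 21.2 ± 3.29, Keap1 at 13.3 ± 1.01 and Osgin1 at 2.54 ± 0.519. Srxn1 was rank 1 or 2 in each library, and Nqo1 rank 1 to 3, so the order of these genes was not the same in all libraries. The same held for Gsr at ranks 2 to 4 and Txnrd1 at ranks 3 and 4, for Gclm and Nfe2l2 at ranks 5 and 6, and for Hmox1 and Gclc at ranks 7 and 8. Keap1 was at rank 9 and Osgin1 at rank 10 in all 12 libraries. Per length, Nfe2l2 exceeded Keap1 by a ratio of 2.02 to 2.60 (median 2.17). Gclm, which encodes the modifier subunit of glutamate-cysteine ligase, exceeded Gclc, which encodes its catalytic subunit, by a ratio of 1.48 to 2.04 (median 1.75).

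**Figure D1:**
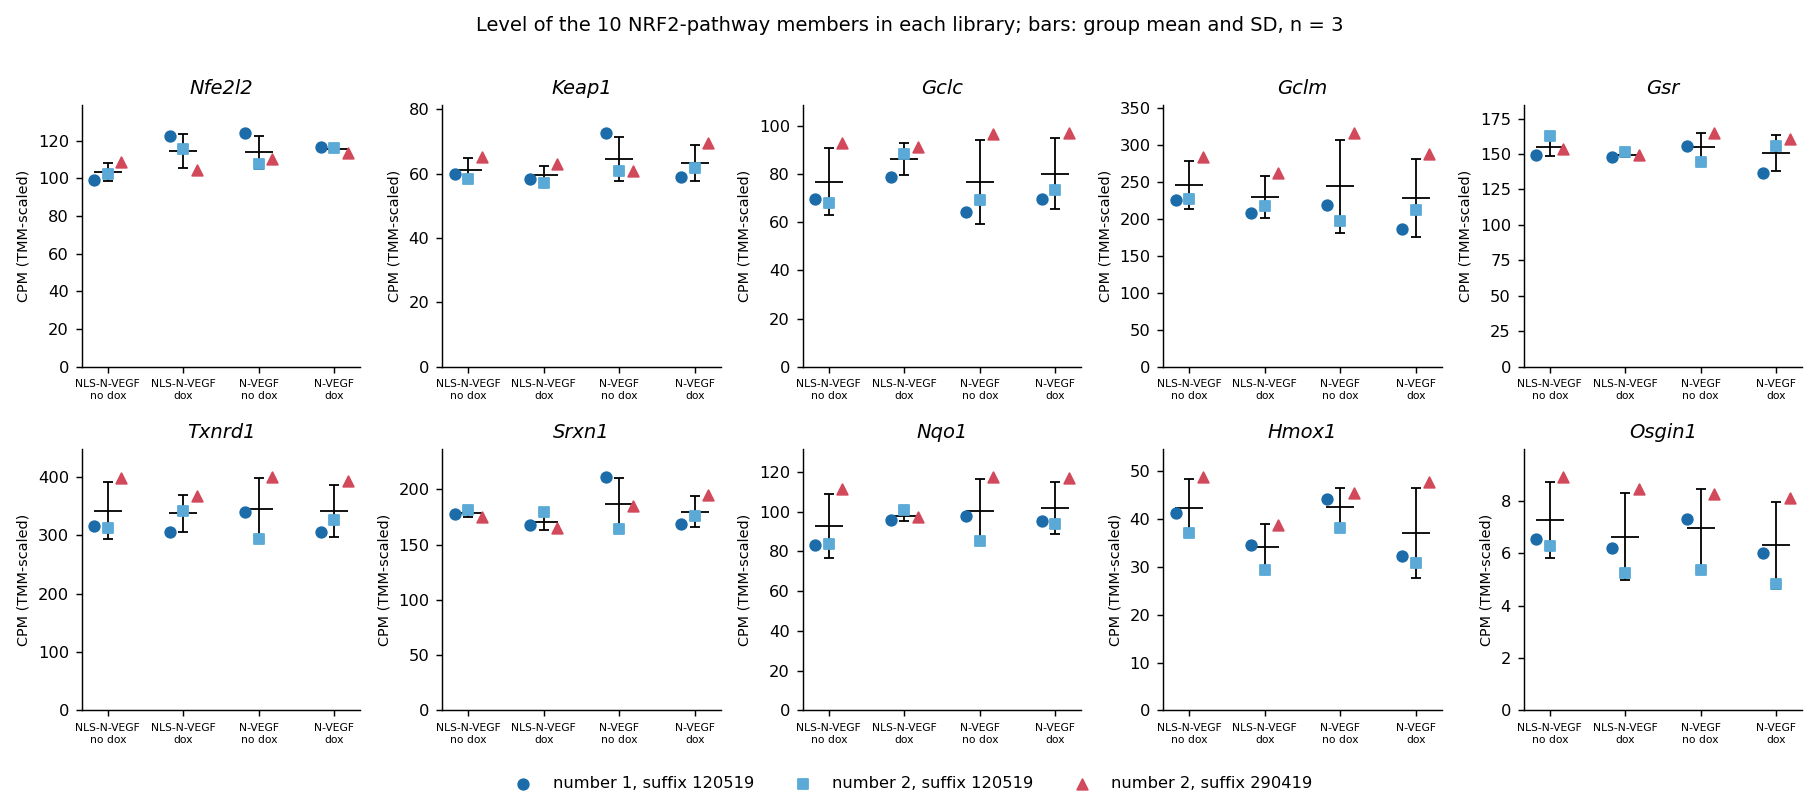
TMM-scaled CPM of each member (vertical axes, from 0) in the 12 libraries, by group on the horizontal axis, with the group mean and SD (n = 3) as black bars and the title number and suffix as symbols. For Gclm, Gclc, Txnrd1 and Osgin1 all 4 libraries with suffix _290419 (red triangles) lie above all 8 with suffix _120519, while dox and no dox overlap in both populations for all 10 members. For the 4 named genes that overlap follows from the suffix, because each group holds libraries of both suffixes.

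Whether dox changed these transcripts was asked in each population. None of the 10 members was called, that is, had an edgeR adjusted p under 0.05 over all genes tested, in the NLS-N-VEGF population (background 3 of 13608 genes, 0.0220%) or in the N-VEGF population (background 5 of 13608 genes, 0.0367%). In neither population were the 3 dox libraries of any member all above or all below the 3 without dox, which was so for 9.25% of all genes in the NLS-N-VEGF population and 3.92% in the N-VEGF population. The same held for 6 against 6 libraries, where 0.382% of all genes did not overlap. For Gclm, Gclc, Txnrd1 and Osgin1 neither result could come out otherwise, so it says nothing about dox. Each group held a library with suffix _290419, and for these 4 genes those libraries lay above all with suffix _120519. Averaged over both populations, 0 of 10 members were called (background 0.0588%), 0 had an unadjusted edgeR p under 0.05 (423 of 13608 genes did), and 3 had a positive and 7 a negative log2 fold change, with a median of -0.040 beside 0.0037 over all genes. With the replicate label (number and suffix) as a block, edgeR called 17 genes in the NLS-N-VEGF population, 15 in the N-VEGF population and 77 on average, with 0 members among them. In the blocked fit Gclc and Hmox1 had an unadjusted edgeR p under 0.05 in the NLS-N-VEGF population, beside 7.27% of all genes. Hmox1 alone did so in the N-VEGF population (5.4% of all genes) and on average (9.3%). Both regulators and all target classes are described next, with library values given in the order number 1 and number 2 with suffix _120519, then suffix _290419.

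Among the regulators, Nfe2l2 (ENSMUSG00000015839, chr2:75675513-75704641, minus strand) stood at 99.3, 102 and 108 CPM in the NLS-N-VEGF population without dox and at 122, 116 and 105 CPM with dox. In the N-VEGF population it stood at 124, 107 and 110.3 CPM without dox and at 116, 116 and 114 CPM with dox. Dox libraries were the higher in both NLS-N-VEGF pairs with suffix _120519 and the lower in the pair with suffix _290419, and the groups overlapped. The edgeR log2 fold changes were 0.15 (SE 0.085, adjusted p = 1.0) in the NLS-N-VEGF population and 0.020 (SE 0.085, adjusted p = 1.0) in the N-VEGF population. Keap1 (ENSMUSG00000003308, chr9:21229730-21239361, minus strand) stood at 60.0, 58.3 and 65.2 CPM without and 58.3, 57.1 and 62.9 CPM with dox in the NLS-N-VEGF population, so that each dox library was slightly below its partner. In the N-VEGF population it stood at 72.6, 60.8 and 60.7 CPM without and 58.9, 61.7 and 69.6 CPM with dox, with no common direction. Of the exon bases of Keap1, 10.9% are shared with a gene on the opposite strand, Gm16754, and the strand setting of the counting was not stated.

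Hmox1 (ENSMUSG00000005413, chr8:75093621-75100589, plus strand) encodes haem oxygenase 1, which breaks down haem and is known to respond to many stresses. It had the largest dox difference among the 10 members in either direction. In the NLS-N-VEGF population it stood at 41.2, 37.0 and 48.9 CPM without dox and at 34.5, 29.4 and 38.8 CPM with dox. In the N-VEGF population it stood at 44.2, 38.1 and 45.5 CPM without dox and at 32.4, 30.9 and 47.9 CPM with dox. The dox library was the lower in 5 of 6 same-numbered pairs, the exception being the N-VEGF pair with suffix _290419, and the groups overlapped in both populations. The edgeR log2 fold change was -0.31 (SE 0.17, 95% interval -0.68 to 0.066) in the NLS-N-VEGF population and -0.20 (SE 0.17, interval -0.57 to 0.17) in the N-VEGF population. Averaged over both it was -0.25 (SE 0.12, unadjusted p = 0.0568, adjusted p = 1.0). With the replicate label added as a block, edgeR gave -0.26 (SE 0.064, unadjusted p = 6.99e-04, adjusted p = 0.0898), and 0.566% of all genes were called in that fit. In the 8 libraries with suffix _120519 alone, the 4 dox libraries (29.4 to 34.5 CPM) were all below the 4 without dox (37.0 to 44.2 CPM), and the edgeR log2 fold change was -0.34 (SE 0.078, adjusted p = 0.0751). Hmox1 and Gclc were the 2 members whose groups did not overlap in these 8 libraries, beside 8.90% of all genes, and none was called beside 1.01% of all genes.

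**Figure D2:**
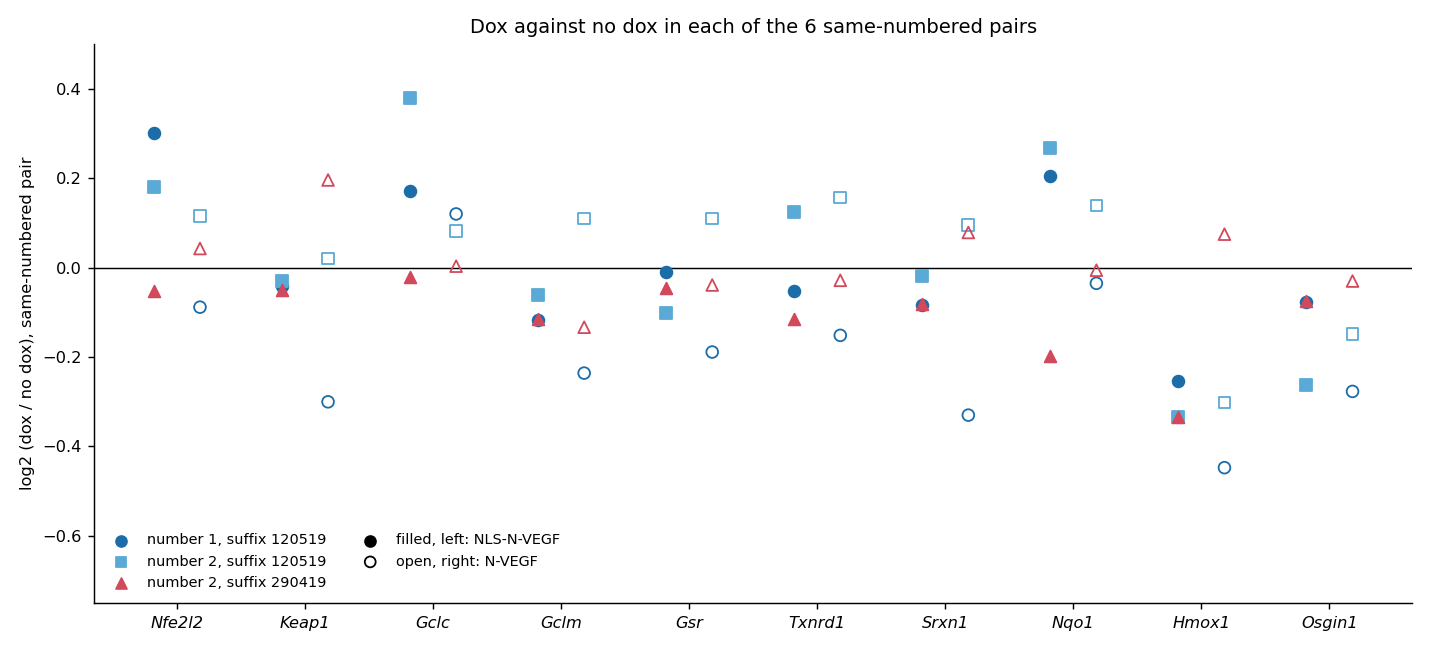
Log2 ratio of dox to no dox (vertical axis, with a pseudocount of 0.1 CPM) in each of the 6 same-numbered pairs for each member (horizontal axis), with filled symbols for NLS-N-VEGF and open symbols for the N-VEGF population and the title number and suffix as shape and colour. Osgin1 lies below 0 in 6 of 6 pairs, Hmox1, Gclm and Gsr in 5 of 6, and Gclc lies above 0 in 5 of 6. The pairs of the other members are split more evenly.

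Osgin1 (ENSMUSG00000074063, chr8:119434124-119446256, plus strand), a target gene linked to growth inhibition and cell death under oxidative stress, was the least abundant member. It stood at 6.56, 6.29 and 8.92 CPM without and 6.21, 5.23 and 8.47 CPM with dox in the NLS-N-VEGF population. In the N-VEGF population it stood at 7.29, 5.36 and 8.28 CPM without and 6.0, 4.83 and 8.10 CPM with dox. Osgin1 was the only member lower with dox in all 6 pairs, with log2 ratios from -0.28 to -0.030, and 5.68% of all genes had 6 pairs in 1 direction. The mean edgeR log2 fold change was -0.14 (SE 0.18, adjusted p = 1.0), and with the block it was -0.14 (SE 0.094, adjusted p = 0.673).

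Glutamate-cysteine ligase makes the first, rate-limiting step of glutathione synthesis, and glutathione reductase (Gsr) returns oxidized glutathione to its reduced form. Gclc (ENSMUSG00000032350, chr9:77754535-77794485, plus strand) stood at 69.8, 67.8 and 92.7 CPM without and 78.6, 88.1 and 91.3 CPM with dox in the NLS-N-VEGF population. In the N-VEGF population it stood at 64.2, 69.3 and 96.7 CPM without and 69.8, 73.4 and 96.9 CPM with dox. The dox library was the higher in 5 of 6 pairs, and in each group the library with suffix _290419 was the highest of the 3. The mean edgeR log2 fold change of Gclc was 0.11 (SE 0.12, 95% interval -0.16 to 0.38). With the replicate block it was 0.12 (SE 0.059, interval -0.0024 to 0.25, edgeR adjusted p = 0.549). For the NLS-N-VEGF population the blocked value of Gclc was 0.18 (interval 0.0023 to 0.35, edgeR adjusted p = 0.678). Gclm (ENSMUSG00000028124, chr3:122245557-122270732, plus strand) was lower with dox in 5 of 6 pairs, with group means of 245 ± 32.6 and 229 ± 28.3 CPM (SD, n = 3) without and with dox in the NLS-N-VEGF population and of 244 ± 63.2 and 228 ± 52.8 CPM in the N-VEGF population. The difference between these means was smaller than either SD. These SDs include the suffix difference, because each group held a library with suffix _290419. The mean log2 fold change of Gclm was -0.096 (SE 0.14), and with the replicate block it was -0.093 (SE 0.060, edgeR adjusted p = 0.663). Gsr (ENSMUSG00000031584, chr8:33652523-33698163, plus strand) varied least relative to its level, between 137 and 165 CPM in all 12 libraries, and had a mean log2 fold change of -0.046 (SE 0.059).

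Thioredoxin reductase 1 (Txnrd1) keeps thioredoxin reduced, and sulfiredoxin (Srxn1) repairs overoxidized peroxiredoxins. Txnrd1 (ENSMUSG00000020250, chr10:82833951-82897712, plus strand) lay between 293 and 401 CPM without dox and between 305 and 393 CPM with dox, and its mean edgeR log2 fold change was -0.015 (SE 0.10). Srxn1 (ENSMUSG00000032802, chr2:152105516-152111376, plus strand) lay between 164 and 211 CPM without dox and between 165 and 195 CPM with dox, with a mean log2 fold change of -0.059 (SE 0.069). NAD(P)H quinone dehydrogenase 1 (Nqo1, ENSMUSG00000003849, chr8:107388225-107403206, minus strand), a reductase widely used as an NRF2 marker, stood at 83.0, 84.0 and 111 CPM without and 95.8, 101 and 97.2 CPM with dox in the NLS-N-VEGF population. In the N-VEGF population it stood at 97.8, 85.1 and 118 CPM without and 95.5, 93.7 and 117 CPM with dox. Nqo1 was the higher with dox in 3 of 6 pairs and its mean log2 fold change was 0.053 (SE 0.10). Over the 10 members, the 95% intervals of the mean dox effect reached from -0.52 (Osgin1) to 0.38 (Gclc) on the log2 scale. That fit left the suffix difference in its spread. With the replicate block the intervals reached from -0.40 (Hmox1) to 0.25 (Gclc).

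Direct comparison of the populations set N-VEGF with the nuclear localization sequence against N-VEGF without it. The level of the insert differed too: with dox it stood at 2.57, 2.58 and 10.2 CPM in the NLS-N-VEGF population and at 7.56, 8.08 and 17.9 CPM in the N-VEGF population. It was the lower in the NLS-N-VEGF library of each same-numbered pair, with a log2 fold change by edgeR of -1.12 (SE 0.51, adjusted p = 1.0), and of -1.23 (SE 0.21, adjusted p = 0.0758) with the block. An effect of the localization sequence and one of the construct level cannot be told apart here. With dox, 0 of 10 members were called between the populations (background 0%, 0 of 13608 genes, of which 160 had an unadjusted edgeR p under 0.05), and the members' log2 fold changes lay between -0.11 (Hmox1) and 0.10 (Gclc). Without dox 0 of 10 were called (background 0%, 0 of 13608 genes, 82 at an unadjusted p under 0.05), with values between -0.14 (Nfe2l2) and 0.053 (Osgin1). The difference of the dox effects was called for 0 of 10 members (background 0%, 0 of 13608 genes, 116 at an unadjusted p under 0.05). It lay between -0.10 (Hmox1, SE 0.24) and 0.13 (Nfe2l2, SE 0.12), and the interval for Hmox1 ran from -0.63 to 0.42. With the replicate block the difference for Hmox1 was -0.088 (SE 0.13, interval -0.36 to 0.18). These comparisons share libraries with the dox comparisons. In none of them did a member pass an unadjusted edgeR p under 0.05, with or without the replicate block.

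By title suffix, most of these genes did differ. With the 4 groups in the model, libraries with suffix _290419 had higher levels of 6 of 10 members than libraries with suffix _120519, and of none lower, by edgeR adjusted p under 0.05. The suffix was called for 45.6% of all genes (22.2% higher and 23.5% lower), so that the 6 of 10 called are to be read against 45.6% and the 6 that rose against 22.2%. The median log2 fold change was 0.28 over the 10 members, 0.064 over the 47 other pathway genes tested and 0.0054 over all genes. The 6 that rose were Osgin1, Gclm, Gclc, Hmox1, Txnrd1 and Nqo1, all targets. Nfe2l2 and Keap1 themselves were not called, nor were Gsr and Srxn1. For 4 members all 4 libraries with suffix _290419 lay above all 8 with suffix _120519, and for none all below. Of all genes 28.0% did not overlap, with both directions counted together. The share of all genes that lay wholly above is not given here.

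Both subunits of glutamate-cysteine ligase were among the 4. The lowest, median and highest level of Gclm was 186, 215 and 227 CPM with suffix _120519, and the libraries with suffix _290419 stood at 283, 261, 315 and 288 CPM (NLS-N-VEGF without and with dox, then N-VEGF without and with dox). The edgeR log2 fold change of Gclm was 0.44 (SE 0.061, adjusted p = 2.85e-05). Gclc lay at 64.2, 69.8 and 88.1 CPM with suffix _120519 and at 92.7, 91.3, 96.7 and 96.9 CPM with suffix _290419, a log2 fold change of 0.39 (SE 0.062, adjusted p = 1.10e-04). The libraries with suffix _290419 were thus all higher for both subunits, in both populations and with and without dox. Gsr, which acts downstream of them, lay at 137, 150.3 and 163 CPM with suffix _120519 and at 154, 149, 165 and 160.2 CPM with suffix _290419, and its log2 fold change was 0.062 (SE 0.055, adjusted p = 0.373).

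Txnrd1 lay at 293, 315 and 341 CPM with suffix _120519 and at 398, 368, 401 and 393 CPM with suffix _290419, without overlap, and its edgeR log2 fold change was 0.30 (SE 0.056, adjusted p = 4.83e-04). Srxn1, the other member of the thioredoxin system, lay at 164, 177 and 211 CPM with suffix _120519 and at 175, 165, 185 and 195 CPM with suffix _290419, fully within that range, with a log2 fold change of 0.014 (SE 0.065, adjusted p = 0.881). Nqo1 lay at 83.0, 94.6 and 101 CPM with suffix _120519 and at 111, 97.2, 118 and 117 CPM with suffix _290419. For Nqo1 only the NLS-N-VEGF library with dox fell within the range of the other suffix, and the log2 fold change was 0.27 (SE 0.064, adjusted p = 0.00282).

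Hmox1 lay at 29.4, 35.8 and 44.2 CPM with suffix _120519 and at 48.9, 38.8, 45.5 and 47.9 CPM with suffix _290419, where again the NLS-N-VEGF library with dox overlapped the other suffix. Its edgeR log2 fold change was 0.33 (SE 0.074, adjusted p = 0.00156). Osgin1 lay at 4.83, 6.11 and 7.29 CPM with suffix _120519 and at 8.92, 8.47, 8.28 and 8.10 CPM with suffix _290419, without overlap, and had the largest change of the members at 0.50 (SE 0.11, adjusted p = 0.00123). Of the regulators, Nfe2l2 lay at 99.3, 116 and 124 CPM with suffix _120519 and at 108, 105, 110.3 and 114 CPM with suffix _290419. Its log2 fold change was -0.046 (SE 0.057, 95% interval -0.17 to 0.074), and that of Keap1 was 0.085 (SE 0.062, interval -0.048 to 0.22).

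**Figure D3:**
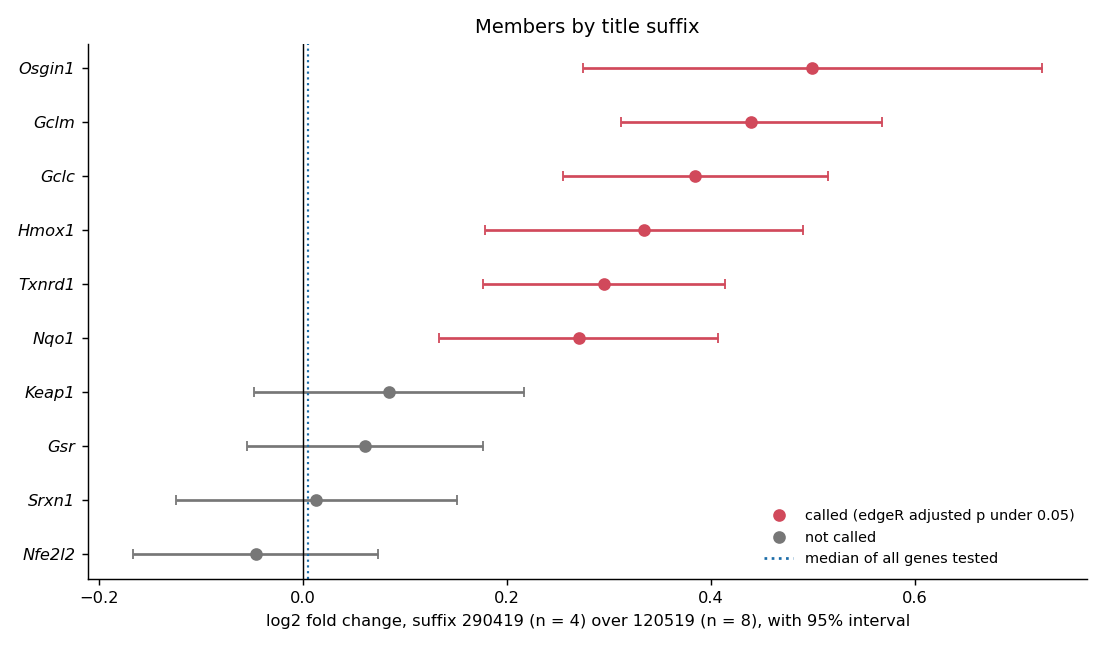
Log2 fold change of suffix _290419 over suffix _120519 (horizontal axis) with its 95% interval for each member (vertical axis), in red where called by edgeR and in grey where not, beside the median of all genes tested as a dotted line. The 6 called members lie between 0.27 and 0.50, and the 4 others between -0.046 and 0.085 with intervals that cross 0.

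Other genes moved with the suffix as well, and their part in these results was not tested. Of the 9 fibroblast markers 3 were higher and 4 lower with suffix _290419 by edgeR adjusted p under 0.05, beside the 22.2% and 23.5% of all genes, among them Pdgfra with a log2 fold change of -1.32 (SE 0.087). Of the markers of other cell types, Krt14 and Cd68 were called higher and Tie1 and Csf1r lower. All were at low counts per library: 14 to 38 for Krt14, 39 to 91 for Cd68, 65 to 175 for Csf1r and 1 to 18 for Tie1. With suffix _290419 Tie1 had 1 to 8 counts, around the floor of 3 counts. In bulk libraries fewer cells of a type and less RNA per cell cannot be told apart. The library that stood apart, N-VEGF without dox numbered 1 with suffix _120519, held the highest level of Keap1, Nfe2l2 and Srxn1 and the lowest of Gclc among the 12. Without it 7 members were called for the suffix, the 6 above and Keap1 (0.12, SE 0.045, adjusted p = 0.0282), beside 51.6% of all genes. The suffix effect was also compared between dox and no dox and between the populations, in a test chosen after the data were seen. None of the 10 members was called in either, beside 0% of all 13608 genes for dox (1102 at an unadjusted p under 0.05) and 0.0294% for the populations (1174 at an unadjusted p under 0.05), 4 genes. The lowest unadjusted edgeR p was 0.0257 for Gclm, whose log2 suffix effect in the NLS-N-VEGF population minus that in the other population was -0.26 (adjusted p = 0.541).

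The rest of the pathway was described through a list of 48 further genes, of which 47 were tested and 1, Ggt1, was at 0 to 3 counts in every library. By suffix 20 of the 47 were higher and 9 lower by edgeR adjusted p under 0.05, beside 22.2% and 23.5% of all genes. The counts by role are given as descriptions of small groups, and several lie near the 45.6% called over all genes. Counting members and other genes together, all but one of the 9 genes of quinone and carbonyl reduction were called, 7 higher and 1 lower. The thioredoxin and peroxiredoxin genes were called higher in 4 of 7 and lower in none, the superoxide and peroxide genes higher in 2 of 3, and the haem and iron genes higher in 3 of 7. The other roles were mixed. The genes of glutathione synthesis and reduction were called higher in 3 and lower in 2 of 9, the NADPH-supplying enzymes higher in 3 and lower in 2 of 6, and the genes of conjugate export and other targets higher in 2 and lower in 1 of 5. NRF2 with its transcription factor partners and rivals were called lower in 3 of 6 and higher in none. The sensor and ubiquitin ligase genes (Keap1, Cul3, Rbx1, Sqstm1 and Btrc) were called higher in 2 of 5.

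Ephx1, an epoxide hydrolase of detoxification, had the largest rise of the list. It lay between 18.6 and 26.1 CPM with suffix _120519 and stood at 58.4, 65.1, 57.1 and 75.7 CPM with suffix _290419. Its edgeR log2 fold change was 1.51 (SE 0.057, adjusted p = 1.24e-10). Glutathione peroxidase 1 (Gpx1) rose by 0.55 (adjusted p = 4.07e-05), aldehyde oxidase 1 (Aox1) by 0.50 (adjusted p = 0.00828) and ferritin heavy chain (Fth1) by 0.50 (adjusted p = 1.73e-04) on the log2 scale. The reads of Fth1 may be shared with near-identical processed copies, so its value is uncertain. The 4 lowest belonged to Chac1, Aldh3a1, Slc7a11 and Bach1. Chac1, which degrades glutathione, lay between 16.1 and 23.9 CPM with suffix _120519 and stood at 6.21, 6.39, 6.18 and 7.37 CPM with suffix _290419, and its edgeR log2 fold change was -1.55 (SE 0.12, adjusted p = 1.40e-07). Slc7a11, the cystine importer that feeds glutathione synthesis, fell by 0.78 (adjusted p = 2.73e-05), the aldehyde dehydrogenase Aldh3a1 fell by 0.98 (adjusted p = 7.68e-05), and Bach1, the repressor that competes with NRF2 for the same elements, fell by 0.50 (adjusted p = 2.15e-05). Slc7a11 and the glutathione ligase genes Gclc and Gclm, which are all known NRF2 targets, thus moved in opposite directions with the suffix.

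**Figure D4:**
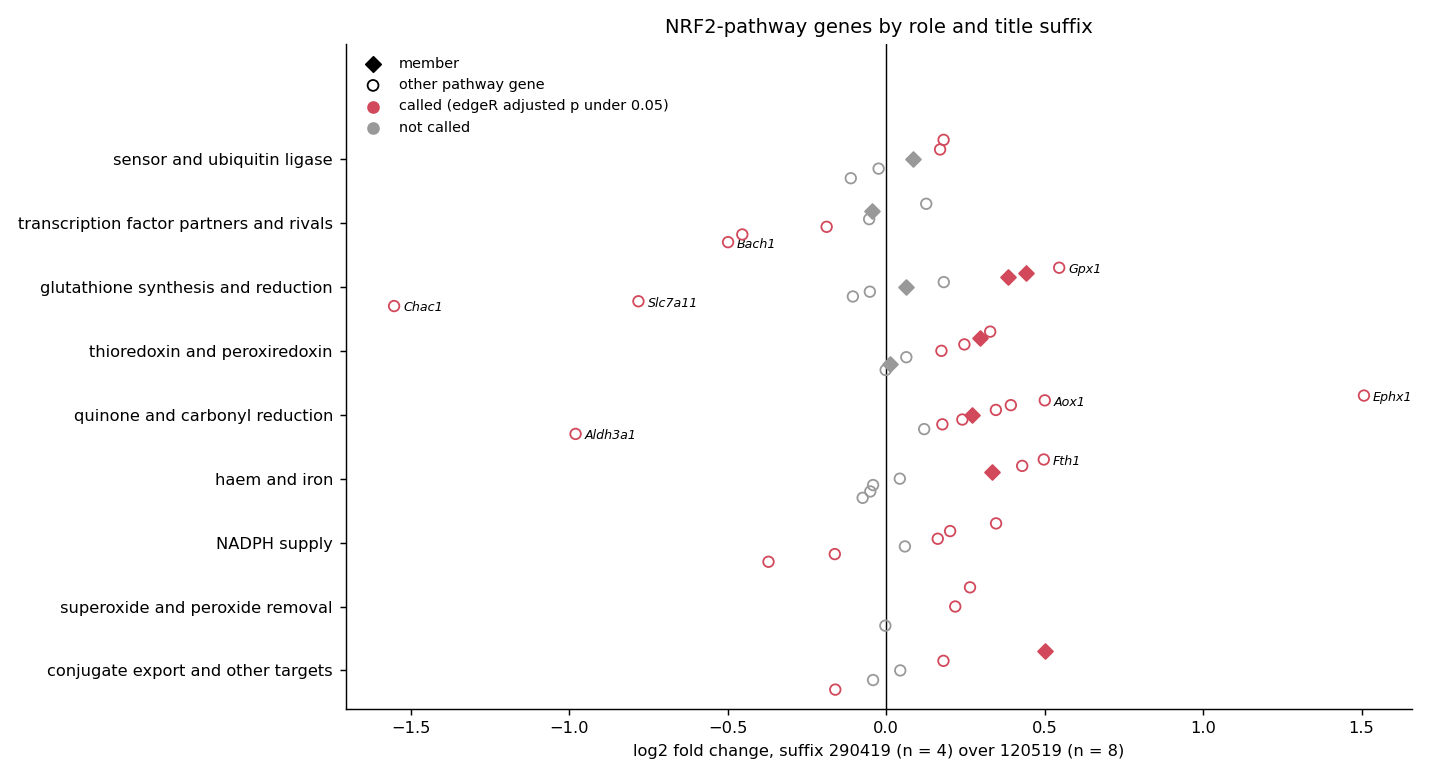
Log2 fold change of suffix _290419 over suffix _120519 (horizontal axis) for the 10 members (diamonds) and the 47 other pathway genes tested (circles), by role on the vertical axis, in red where called by edgeR. The called members lie to the right of 0, with Ephx1 the farthest to the right at 1.51 and Chac1 the farthest to the left at -1.55 among all genes shown.

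With dox, none of the 47 other pathway genes was called in either population or on average, and their median log2 fold change was -0.0093 averaged over both populations. With the replicate label as a block, 1 of them was called, on average over both populations, where 0.566% of all genes were called. Ephx1 stood at 20.1, 19.2 and 58.4 CPM without and 23.8, 25.1 and 65.1 CPM with dox in the NLS-N-VEGF population, and at 22.3, 18.6 and 57.1 CPM without and 25.1, 26.1 and 75.7 CPM with dox in the N-VEGF population. The dox library was the higher in 6 of 6 pairs, while the suffix separated the libraries by much more than dox did. Nfe2l1, Abcc1 and Ugdh were also higher in 6 of 6 pairs, and Glrx, Ptgr1, Akr1b8 and Aldh3a1 were lower in 6 of 6. Over all genes 5.68% had 6 pairs in 1 direction. The blocked edgeR log2 fold change of Ephx1 averaged over both populations was 0.31 (SE 0.059, adjusted p = 0.0229).

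Among the 8 libraries with suffix _120519, which share their suffix but differ in group and depth, the members did not vary as one set. Pearson's r of log2 (CPM + 2) was 0.90 for Nfe2l2 and Nqo1, 0.86 for Gclm and Gsr and 0.80 for Keap1 and Srxn1, whereas it was 0.018 for Gclc and Gclm and -0.77 for Gclc and Hmox1. The library that stood apart was among these 8. Among 8921 genes above the level of 10 CPM on average, those with the largest r to Nfe2l2 were Cd9 (0.99), Zfp365 (0.97) and Scarb1 (0.97). To Nqo1 they were Jak1 (0.98), Sh3kbp1 (0.97) and Slc25a13 (0.95), and to Hmox1 they were Zfp827 (0.98), St5 (0.98) and Tfap4 (0.97). These are descriptions over 8 libraries, with no test, and they are the highest of all those compared.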

How the data were processed

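Per the labels and the study's methods, the authors made TruSeq libraries for 12 samples labelled as 4 groups and sequenced them as single reads. Trim Galore was used for trimming, TopHat2 2.1.0 with Bowtie2 2.2.6 for alignment to GRCm38, and HTSeq-count 0.6.1 for the gene table. The deposited values are raw counts, not normalized, and the strand option was not given in the sources used here. The test was that of edgeR 4.0.16 in R 4.3.3 (quasi-likelihood F test, TMM scaling, filterByExpr by group, two-sided, Benjamini-Hochberg over 13608 genes), with 1 mean per group in all 12 libraries, and with group plus suffix for the suffix. Standard errors were derived from the F statistic. CPM used TMM-scaled totals, and the precision is that of 13549331 to 18982127 counts per library. Reads carried no molecular identifiers, so floors cover counting error only. Genes were placed on GRCm38 with GENCODE M21.

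The members and lists were chosen with earlier results of these data known. All 10 members were named, with at most 4 of the highest and 4 of the lowest called pathway genes whose mean reached 1 CPM, and the 3 genes most like Nfe2l2, Nqo1 and Hmox1. Pathway and marker lists were written from general knowledge. The title number and suffix together gave a replicate label that was taken to pair libraries of different groups. Deviations from group means over 12058 genes correlated in all 18 same-label pairs (r 0.400 to 0.830), which are 6 with suffix _290419 (mean 0.743) and 12 with suffix _120519 (mean 0.514). The 12 pairs with the same suffix but another number were nearly as alike (r 0.144 to 0.678, mean 0.471), and the 24 pairs of unlike suffix were all negative (mean -0.605), so the block carried the suffix far more than the number. Every pair of libraries within a group differed by more than sampling noise. The alternatives were DESeq2 1.42.0 (Wald test), scaling by RLE, 2 other filters on low counts, a replicate block, a suffix term, subsets of libraries and leaving out each library. The tests were checked on simulated data. In the simulation for dox no gene differed by suffix, and the spread was near that of the blocked fit. It therefore does not show how large a dox effect the unblocked fit could detect in these libraries.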

Additional observations from a re-analysis of the deposited data

How the results depend on the processing

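No member was called in a dox or population comparison under any alternative that was run, and 6 were called for the suffix under each that was run for it, or 7 without the N-VEGF library without dox numbered 1 with suffix _120519. Of 1190 values of members in the dox and population comparisons under an alternative, 137 changed sign, all of them uncalled. Of 170 for the suffix, none of those called in the report was lost or reversed. The replicate block gave 0 members in each dox and population comparison, as without it. Among the members and the other pathway genes the block changed no other call than that of Ephx1. Counts over all genes moved more. For the dox effect averaged over both populations, 8 genes were called, against 20 with DESeq2, 77 with the replicate block, 77 without a filter on low counts, 73 with the suffix as a term, 135 in the suffix _120519 libraries alone and 5 to 9 with 1 library left out. In the NLS-N-VEGF population the count was 3, against 0 to 109, and in the N-VEGF population 5, against 1 to 36. For Hmox1 the averaged dox log2 fold change lay between -0.37 and -0.20 over 20 alternatives, with adjusted p from 0.0751 to 1.0, and with the block but without the library that stood apart, an alternative chosen after the data were seen, it was -0.23 (edgeR adjusted p = 0.0843). For the dox effect on Osgin1, the least counted member, in the N-VEGF population the 95% interval was -0.69 to 0.39 on the log2 scale. That is for 3 libraries per group at this depth, in the fit without the suffix. With the replicate block the interval was -0.43 to 0.13.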
